A study of Mus musculus with 24 samples.

Results

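Eepd1, Rpa2, Tspyl5, Med16, Pacsin1, Eipr1, Cryl1, Ech1 and Ccs are 9 protein-coding genes, from DNA repair to copper delivery, whose mRNAs were strongly enriched in the polyribosomal RNA of mouse cortex. They were chosen for a high polyribosomal minus total log2 value in WT or Fmr1 KO cortex, so this enrichment is described here without a test. The annotation of the Affymetrix mouse genome array gave them 17 of the 45037 probe sets on the array, each with a single gene symbol, and 9 of 18193 such symbols. Of the 17 probe sets, 13 passed the filter on dim signal, which asks for a log2 value of 4 or more in no fewer than 6 of the arrays being compared. The remaining 4, of Eepd1, Eipr1 and Cryl1, stayed under 4 in all 24 arrays.

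The samples were cerebral cortices of male FVB mice at postnatal day 7. The mice were wild type (WT) or Fmr1 null littermates (Fmr1 KO). Fmr1 encodes FMRP, an RNA-binding protein associated with polyribosomes, and its loss causes fragile X syndrome in humans. Each genotype had 6 lysates, each pooled from 2 mice, and each lysate gave 1 array of total RNA and 1 of polyribosomal RNA. That made 4 groups of 6 arrays: WT total, WT polyribosomal, Fmr1 KO total and Fmr1 KO polyribosomal. White matter had been dissected away, and cycloheximide, which holds ribosomes on the mRNA, was present through lysis. Total RNA came from the supernatant of the cleared lysate before the gradient, so it is cytoplasmic RNA of all cell types of the cortex together. Polyribosomal RNA was the pool of gradient fractions 10 to 13 of 16, where mRNAs carry 6 or more ribosomes.

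In a sucrose gradient an mRNA travels further the more ribosomes it carries. How many it can carry is set by how often ribosomes initiate on it, how fast they elongate and how long its coding sequence is. A gene is enriched in this experiment when its share of the heavy pool is larger than its share of the lysate. All arrays were normalized to nearly the same distribution, so a difference is relative to the other mRNAs on the array. It does not give the fraction of a gene's mRNA that is on ribosomes.

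Array medians lay between log2 values of 3.17 and 3.20, and 38.8% to 40.0% of probe sets per array reached 4. The mean correlation of an array with the others of its group was lowest for WT polyribosomal number 4, at 0.983, and Fmr1 KO polyribosomal number 5, also at 0.983. For all 3 Fmr1 probe sets the highest Fmr1 KO array lay below the lowest WT array, in total as in polyribosomal RNA. In all 12 total arrays the probe sets of 5 cortical excitatory neuron markers, 4 interneuron, 4 astrocyte and 4 oligodendrocyte lineage markers reached 4. Of 4 markers of cerebellum and other regions and 2 of blood, none did in any total array. Of 3 microglial markers only Aif1 reached 4 in all 12. Of the endothelial markers only Cldn5 reached 4, in 4 arrays. Of the choroid plexus markers only Ttr did, in 8 arrays, with means of 8.93 in WT and 6.91 in Fmr1 KO total RNA, and its part in the genotype comparisons was not tested. The number of arrays limits the precision.

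The sequence next to the cap is shown because a class of mRNAs with known control of ribosome loading can be recognised there. These are the terminal oligopyrimidine mRNAs, among them those of ribosomal proteins, which begin with a C followed by an unbroken run of C or T. RefSeq promoter sequences (GRCm38.p6) were at hand for 7 of the 9 genes. Each line gives 10 bases before the annotated start in lower case and the first 20 transcribed bases in capitals.
Eepd1 (chr9:25481587-25481616, plus strand): ggcgggacctGACTTCAGCTGTGACACCCA
Rpa2 (chr4:132768350-132768379, plus strand): aaagtagccaGAAGGCTGCCACGCCAGAGC
Med16 (chr10:79908919-79908948, minus strand): gtagccgagcTTCTCCCACAAGTCTGTGCG
Pacsin1 (chr17:27685229-27685258, plus strand): ttcgggcgctGTCGCCTCCCGAGCCAGAGC
Eipr1 (chr12:28751809-28751838, plus strand): atgacgcgacGAAGAAAACAGGAAGTGAGC
Cryl1 (chr14:57398464-57398493, minus strand): cgctccctccGCTAACGCAGCTGTACAGCC
Ech1 (chr7:28825328-28825357, plus strand): gggagtaagtCGCACAGCTCCGGAGCTCCA

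Read on the transcribed strand, a first base C followed by 4 bases that are each C or T was found at 0 of these 7 starts, at 2.51% of the 32851 starts in the table and at 18.6% of the 70 starts of cytosolic ribosomal protein symbols. Annotated starts can be off by several bases, so a missing match says only that these letters are not at the annotated position. Read from the base just before its annotated start, the Med16 sequence does match. Matching stretches also lie a few bases from the annotated starts of Cryl1 and Pacsin1. How often this holds among all starts was not counted. Over the whole 300-base promoter window, the 7 genes had 39.3% to 71.7% G and C (median 56.7%, against 52.7% for all promoters) and 8 to 33 CpG dinucleotides (median 18, against 7). Searched on both strands, the TATA box (TATAAA) was in 1 of 7 (13.6% of all), that of Med16. The CCAAT box (CCAAT) was in 4 of 7 (37.4% of all), and the GC box (GGGCGG) in 4 of 7 (35.7% of all). The ETS core (CCGGAA) was in 1 of 7 (14.9% of all), that of Rpa2, and the E-box (CACGTG) in 0 of 7 (7.15% of all). The 7 promoters thus ranged from GC-rich ones with many CpG dinucleotides, as in Pacsin1 and Eepd1, to the AT-richer one of Med16. The genes lie on 9 different autosomes: chromosomes 4, 7, 9, 10, 12, 14, 15, 17 and 19.

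The levels of the 9 genes in every array are shown first, each at its brightest probe set.

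**Figure D1:**
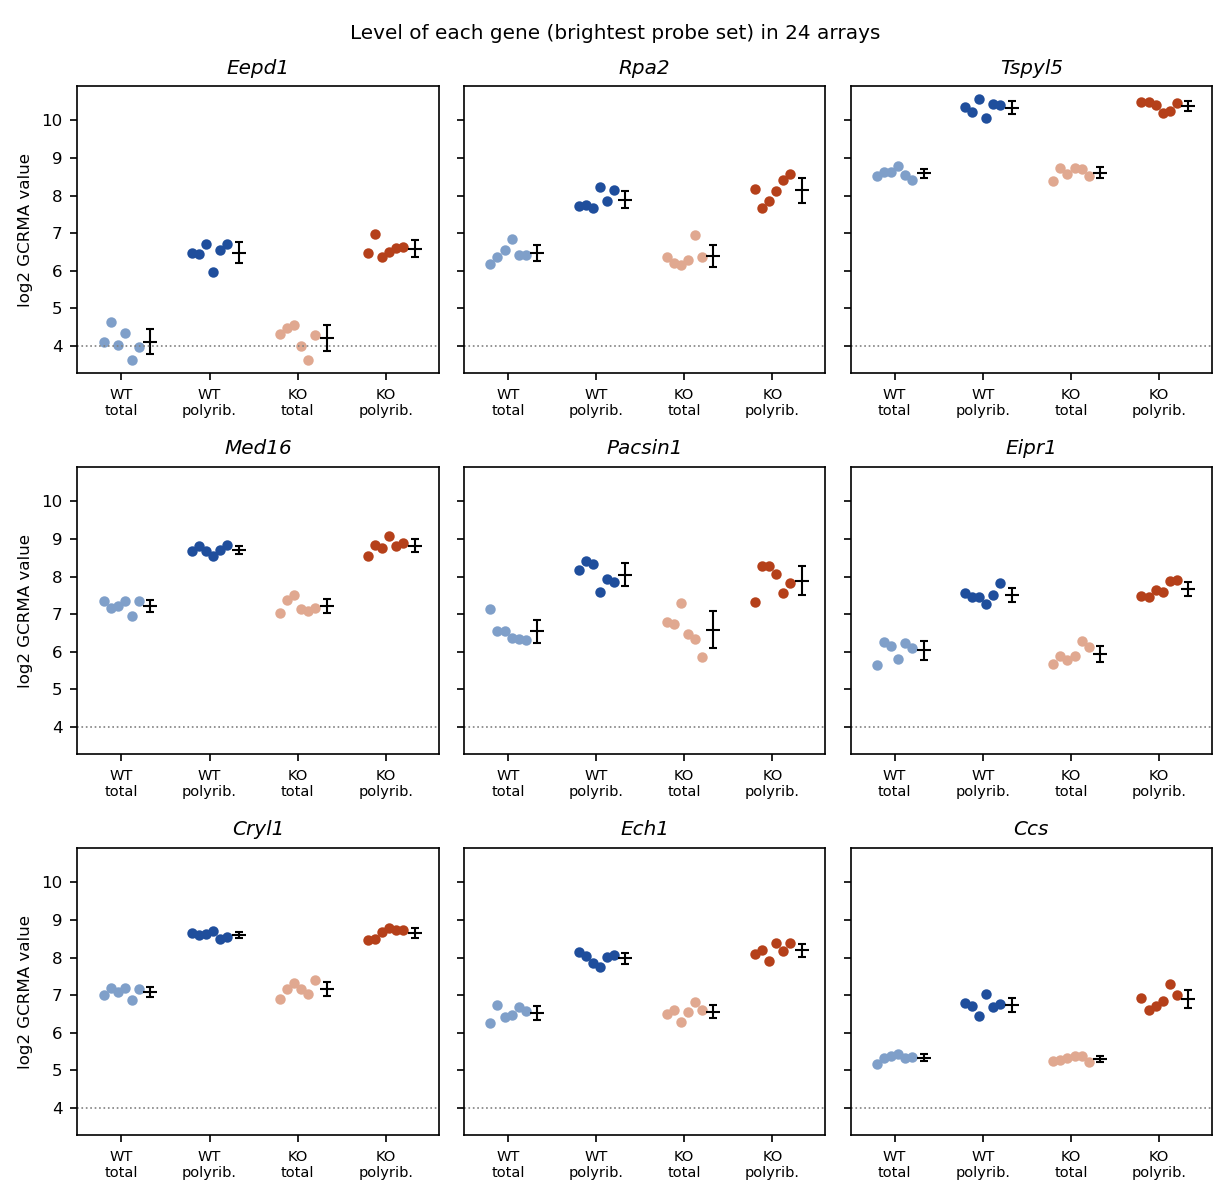
Log2 GCRMA value (vertical axis) of the brightest probe set of each gene in the 24 arrays, by group of 6 (KO stands for Fmr1 KO, polyrib. for polyribosomal). Points are arrays in the order of their replicate number, black bars are the mean and SD, and the dotted line is the limit of 4 used to filter dim signal; in every panel all polyribosomal arrays lie above all total arrays of the same genotype, and only Eepd1 reaches down to the dotted line.

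Eepd1 encodes a nuclease of the endonuclease/exonuclease/phosphatase family that acts at stalled replication forks. Its probe set 1417877_at had log2 values of 3.63, 4.06 and 4.63 (lowest, median and highest of 6) in WT total RNA and of 5.96, 6.52 and 6.72 in WT polyribosomal RNA. In Fmr1 KO it had 3.62, 4.29 and 4.56 in total RNA and 6.36, 6.55 and 6.98 in polyribosomal RNA. The groups of the 2 RNA kinds did not overlap in either genotype. The polyribosomal minus total difference was 2.36 ± 0.53 (SD, n = 6) in WT, a 5.15-fold difference, and 2.38 ± 0.39 (SD, n = 6) in Fmr1 KO, 5.21-fold. Eepd1 had the second-highest difference of the 9725 genes tested in WT and of the 9700 tested in Fmr1 KO, with 1 probe set per gene. In total RNA the signal was under the limit of 4 in 2 of 6 arrays of each genotype, and differences measured from so dim a signal are compressed or unstable. The x_at probe set of Eepd1, 1447828_x_at, stayed between 1.79 and 2.29 in all 24 arrays and gives no information on the gene.

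Rpa2 encodes the middle subunit of replication protein A, the heterotrimer that coats single-stranded DNA during replication and repair. Both of its probe sets passed the filter and gave nearly the same picture. At 1454011_a_at the values were 6.19, 6.42 and 6.84 (lowest, median, highest) in WT total and 7.68, 7.80 and 8.22 in WT polyribosomal RNA. Those of Fmr1 KO were 6.14, 6.32 and 6.96 in total and 7.67, 8.15 and 8.59 in polyribosomal RNA. All polyribosomal arrays were higher than all total arrays of their genotype. The difference was 1.43 ± 0.19 in WT and 1.75 ± 0.29 in Fmr1 KO (SD, n = 6 lysates each), or 2.69-fold and 3.36-fold. At 1416433_at it was 1.47 ± 0.15 in WT and 1.62 ± 0.39 in Fmr1 KO (SD, n = 6 lysates each). Within a lysate the 2 probe sets differed by -0.04 ± 0.11 in WT and 0.13 ± 0.40 in Fmr1 KO (SD, n = 6 lysates each), with no common sign.

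Tspyl5, a gene of the TSPY-like branch of the nucleosome assembly protein (NAP) family, had a single probe set, 1455807_at. It stood at 8.41, 8.59 and 8.79 in WT total and 10.07, 10.38 and 10.57 in WT polyribosomal RNA. In Fmr1 KO it stood at 8.40, 8.65 and 8.75 in total and 10.20, 10.44 and 10.49 in polyribosomal RNA. More than 1 log2 unit thus separated the lowest polyribosomal from the highest total array. The difference was 1.75 ± 0.27 (SD, n = 6) in WT, 3.37-fold, and 1.77 ± 0.24 (SD, n = 6) in Fmr1 KO, 3.41-fold.

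Med16, whose product is a tail subunit of the Mediator complex that links transcription factors to RNA polymerase II, also had a single probe set, 1438416_at. Its values were 6.94, 7.28 and 7.35 in WT total and 8.55, 8.70 and 8.84 in WT polyribosomal RNA. The Fmr1 KO values were 7.04, 7.15 and 7.50 in total and 8.56, 8.83 and 9.08 in polyribosomal RNA. The 2 RNA kinds were again apart in every array. Enrichment amounted to 1.48 ± 0.21 (SD, n = 6) in WT, 2.80-fold, and 1.61 ± 0.24 (SD, n = 6) in Fmr1 KO, 3.06-fold.

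Pacsin1 encodes syndapin I, a neuronal F-BAR protein that bends membranes during synaptic vesicle endocytosis. Its 2 probe sets, which the annotation assigns to the same gene, gave different sizes of enrichment. At 1449381_a_at the values were 6.32, 6.46 and 7.13 in WT total and 7.60, 8.06 and 8.42 in WT polyribosomal RNA. In Fmr1 KO they were 5.85, 6.62 and 7.31 in total and 7.33, 7.95 and 8.29 in polyribosomal RNA. There the difference was 1.51 ± 0.32 (SD, n = 6) in WT, 2.84-fold, and 1.31 ± 0.51 (SD, n = 6) in Fmr1 KO, 2.48-fold, and the lowest lysate was Fmr1 KO number 1 at 0.54. At 1449380_at the values were 6.23, 6.45 and 6.73 in WT total and 6.68, 6.95 and 7.51 in WT polyribosomal RNA, so the 2 RNA kinds overlapped. The difference there was 0.57 ± 0.22 (SD, n = 6) in WT, 1.48-fold, and 0.43 ± 0.33 (SD, n = 6) in Fmr1 KO, 1.35-fold, with Fmr1 KO number 5 at -0.11. The first probe set exceeded the second in each of the 12 lysates, by 0.94 ± 0.34 in WT and 0.88 ± 0.46 in Fmr1 KO (SD, n = 6 lysates each). The a_at suffix marks a probe set that recognises several transcripts of its gene. Which Pacsin1 transcripts each probe set reads was not analysed here. The mean of both probe sets was 1.04 in WT lysates and 0.87 in those of Fmr1 KO.

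Eipr1 encodes a WD40-repeat protein that binds the endosomal EARP complex and takes part in endosomal recycling and dense-core vesicle formation. At 1436955_at its values were 5.64, 6.14 and 6.25 in WT total and 7.28, 7.49 and 7.83 in WT polyribosomal RNA. In Fmr1 KO they were 5.67, 5.88 and 6.28 in total and 7.45, 7.63 and 7.90 in polyribosomal RNA. The lowest polyribosomal array was at least 1 log2 unit above the highest total array in both genotypes. Eipr1 was enriched by 1.48 ± 0.29 (SD, n = 6) in WT, 2.80-fold, and by 1.73 ± 0.12 (SD, n = 6) in Fmr1 KO, 3.31-fold. The dimmer 1445308_at gave 1.00 ± 0.40 in WT and 1.14 ± 0.31 in Fmr1 KO (SD, n = 6 lysates each), but in total RNA it was under 4 in 2 of 6 WT arrays and 1 of 6 Fmr1 KO arrays. The third probe set, 1441877_x_at, stayed between 2.04 and 2.84.

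Cryl1 encodes lambda-crystallin, an L-gulonate dehydrogenase of the uronate cycle. Its brightest probe set, 1416795_at, stood at 6.88, 7.12 and 7.20 in WT total and 8.49, 8.61 and 8.71 in WT polyribosomal RNA. In Fmr1 KO it stood at 6.89, 7.16 and 7.40 in total and 8.48, 8.70 and 8.79 in polyribosomal RNA. Cryl1 had the smallest spread over WT lysates of the tested probe sets, at 1.52 ± 0.11 (SD, n = 6), 2.87-fold, and stood at 1.49 ± 0.17 (SD, n = 6) in Fmr1 KO, 2.81-fold. At 1447112_s_at, a kind that can also bind related transcripts, the difference was 1.05 ± 0.13 in WT and 1.10 ± 0.30 in Fmr1 KO (SD, n = 6 lysates each). The other 2 probe sets were dim. 1430681_at lay between 2.82 and 3.49 in all arrays. 1459589_at had the opposite sign, with a difference of -0.60 ± 0.18 in WT and -0.49 ± 0.22 in Fmr1 KO (SD, n = 6 lysates each) at values between 2.81 and 3.92, too dim for a fold difference.

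Ech1 encodes a dienoyl-CoA isomerase that helps to degrade unsaturated fatty acids in mitochondria and peroxisomes. Its probe set 1448491_at had values of 6.25, 6.53 and 6.73 in WT total and 7.74, 8.03 and 8.16 in WT polyribosomal RNA. The Fmr1 KO values were 6.27, 6.58 and 6.82 in total and 7.91, 8.18 and 8.39 in polyribosomal RNA. The 2 RNA kinds did not overlap. Enrichment was 1.45 ± 0.24 (SD, n = 6) in WT, 2.73-fold, and 1.63 ± 0.17 (SD, n = 6) in Fmr1 KO, 3.09-fold.

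Ccs encodes the chaperone that delivers copper to the Cu/Zn superoxide dismutase Sod1. Its probe set 1448615_at had values of 5.17, 5.35 and 5.45 in WT total and 6.43, 6.73 and 7.04 in WT polyribosomal RNA. In Fmr1 KO these were 5.22, 5.30 and 5.39 in total and 6.62, 6.88 and 7.30 in polyribosomal RNA. Total arrays were tightly grouped and lay below every polyribosomal array. The difference was 1.40 ± 0.20 (SD, n = 6) in WT, 2.64-fold, and 1.60 ± 0.24 (SD, n = 6) in Fmr1 KO, 3.03-fold.

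**Figure D2:**
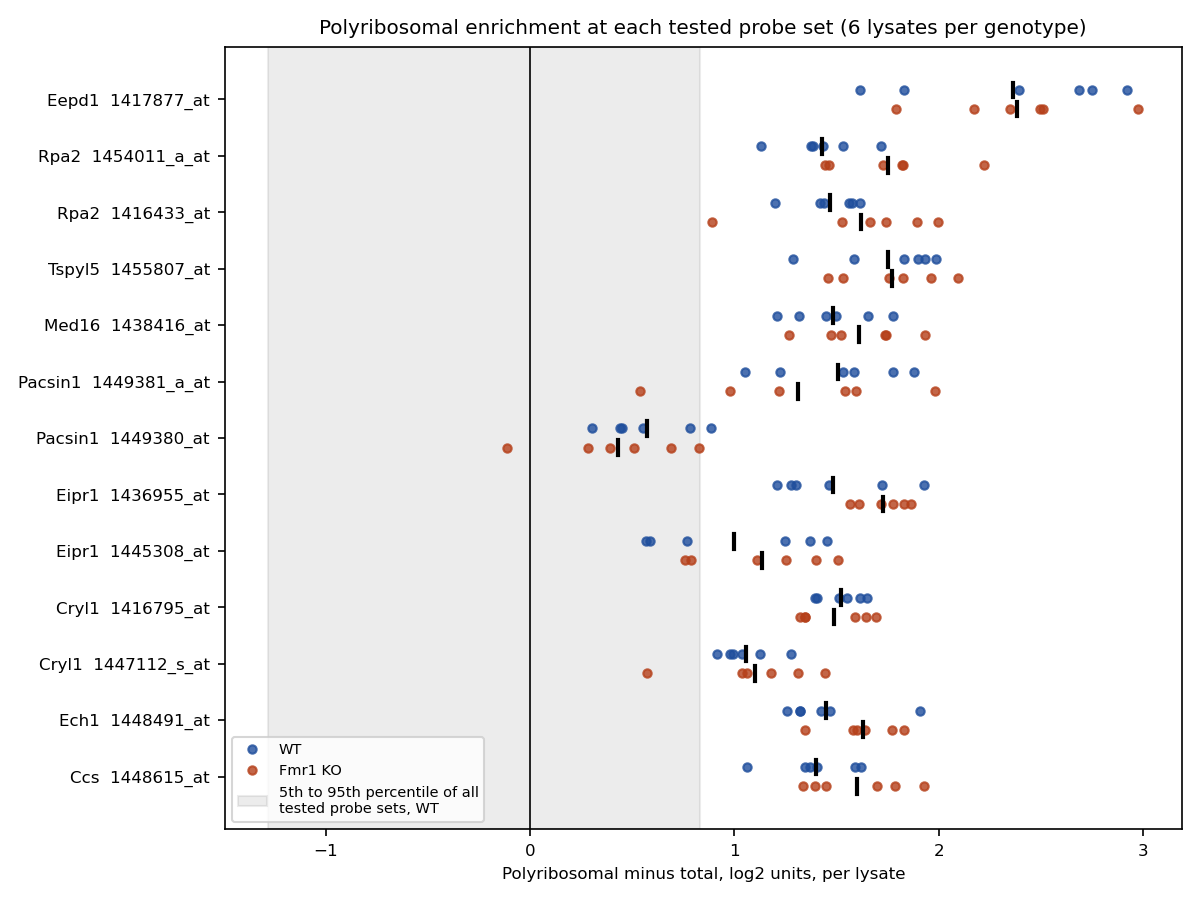
Polyribosomal minus total difference in log2 units (horizontal axis) at the 13 tested probe sets (rows, gene and probe set), with 1 point per lysate, 6 for WT and 6 for Fmr1 KO, and black ticks at the means. The grey band spans the 5th to 95th percentile of all tested probe sets in WT, from -1.28 to 0.83; all means lie to its right except those of Pacsin1 1449380_at, at 0.57 in WT and 0.43 in Fmr1 KO.

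Over the 13 tested probe sets the median difference was 1.47 in WT and 1.61 in Fmr1 KO, against 0.07 in both genotypes for all probe sets tested. A difference of at least 1 was found at 11 of the 13 in WT, where 2.11% of all 17893 probe sets tested had one, and at 12 of 13 in Fmr1 KO, against 2.93% of 17854. In WT 1445308_at of Eipr1 stood just under 1. Every polyribosomal array exceeded every total array at 12 of 13 in WT (20.5% of all tested) and at 12 of 13 in Fmr1 KO (22.4%), the exception being 1449380_at of Pacsin1. In limma's fit all 13 were past the threshold and higher, a count fixed by the choice of genes and no test of them. Of all probe sets tested, 36.2% were higher and 29.1% lower in WT, and 37.2% and 28.7% in Fmr1 KO. Nothing is read from these counts, because the genes were chosen on this difference.

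The choice of genes had no sharp edge. With 1 probe set per gene, the 9 ranked between 2 and 19 of 9725 genes in WT, with Ccs last at 1.40. In Fmr1 KO 8 of them ranked between 2 and 15 of 9700, while Pacsin1 ranked 54 at 1.31. Fxr2, an autosomal relative of Fmr1, stood above all 9 at 2.64 in WT. Genes just below Ccs in WT were Glyr1 at 1.39, Daxx at 1.38 and Rrp36 at 1.37. Others lay among the 9, such as Rps4l at 1.72, Mrpl19 at 1.50, Cxxc5 at 1.45 and Nit1 at 1.44.

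The spread of the enrichment over lysates was much like that of other mRNAs. The median SD of the difference over the 13 probe sets was 0.22 in WT and 0.29 in Fmr1 KO, against 0.25 and 0.23 for all tested. Of the 9 genes at their brightest probe set, 4 had their lowest WT value in lysate number 4, whose polyribosomal array correlated least with its group. These were Eepd1, Tspyl5, Med16 and Ech1. The median over the 9 genes was 1.38 in that lysate, the lowest of the 6 WT lysates, whose highest was 1.65 in number 1. The median over all tested probe sets was also lowest in WT lysate number 4, at 0.02. In Fmr1 KO the median ran from 1.54 in lysate number 2 to 1.78 in number 6. Within groups, the array levels of the 9 genes showed no common rise and fall. After removing group means, the correlation between the levels of 2 genes over the 24 arrays ran from -0.62 to 0.69. The median over the 36 pairs was 0.03. Whether the enrichment itself moved together over lysates was not tested. These are descriptions over arrays that share the same lysates.

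For each of the 9 genes, the gene most like it over the 24 arrays was the one with the highest Pearson correlation among 9724 other genes. Most of this correlation comes from the step between total and polyribosomal RNA, which many genes share. Eepd1 was most like Fxr2 (r = 0.978), Tspyl5 like Pdhb, a subunit of pyruvate dehydrogenase (r = 0.986), and Pacsin1 like Nos1ap, an adaptor of neuronal nitric oxide synthase (r = 0.971). Cryl1 was most like Med16 (r = 0.984), which itself was most like Twf2, an actin-binding twinfilin (r = 0.987). Eipr1 was closest to Cope, a coatomer subunit (r = 0.986), and Ech1 to Taldo1, the transaldolase of the pentose phosphate pathway (r = 0.990). Ccs was closest to Echs1, a mitochondrial enoyl-CoA hydratase (r = 0.991), and Rpa2 to Enoph1, an enzyme of methionine salvage (r = 0.981). These neighbours were enriched too, by 0.47 (Enoph1) to 2.64 (Fxr2) in WT.

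The next question was how mRNAs of the same complexes and pathways stood. Lists of 151 genes in 8 groups, without the 9 genes themselves, were compared in WT and in Fmr1 KO, with 1 probe set per gene. Among all genes tested, limma called 37.5% higher and 28.4% lower in polyribosomal RNA of WT, and 38.7% and 28.2% in Fmr1 KO, with a median of 0.09 in both. Adjusted p values in these paragraphs are Benjamini-Hochberg values over all probe sets tested in the genotype named. No set test was run. The 9 genes were chosen for a high value, so nothing is read from list genes standing below them.

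**Figure D3:**
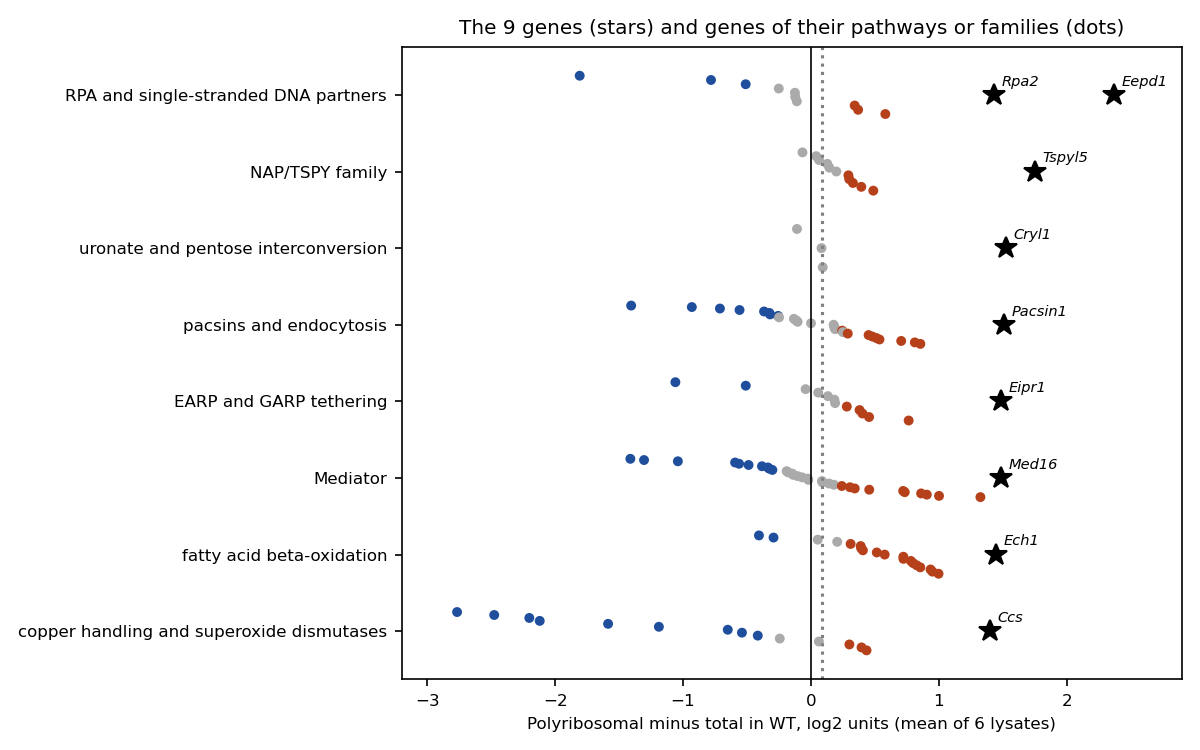
Polyribosomal minus total difference in WT in log2 units (horizontal axis, mean of 6 lysates) of the 9 genes (black stars) and of the tested genes of their pathways or families (dots, 1 probe set per gene; rows are the 8 lists). Red dots were called higher, blue lower and grey neither by limma at an adjusted p of 0.05. The dotted line is the median of all genes tested, 0.09. In each row the stars lie to the right of every dot, which follows from choosing the 9 genes for their height and is no result.

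Most tested genes of the list around Ccs, few of them its direct partners, went the other way. Of 14 tested genes of copper handling and the superoxide dismutases, 9 were lower and 3 higher in WT, with a list median of -0.60, and 9 lower and 2 higher in Fmr1 KO (4 higher there without number 3), with a median of -0.53. Sod1, the enzyme that Ccs loads with copper, fell by 0.54 in WT (SE 0.10, limma adjusted p = 0.000479) and by 0.49 in Fmr1 KO, in 6 of 6 lysates each. Its other tested probe sets stood at -0.55 and -0.35 in WT and also passed. Atox1, the chaperone that brings copper to the transporters of the secretory pathway, fell by 2.12 in WT (SE 0.14, limma adjusted p = 3.86e-07) and by 2.06 in Fmr1 KO. At Atox1 the level was 9.51 ± 0.12 (SD, n = 6) in total and 7.39 ± 0.39 (SD, n = 6) in polyribosomal RNA of WT.

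Cox17, which carries copper to cytochrome oxidase, stood at -2.48 in WT, and the metallothionein genes Mt3 and Mt1 at -2.77 and -2.20, all lower in 6 of 6 lysates. Higher members in WT were the mitochondrial superoxide dismutase gene Sod2, which needs manganese and not copper, at 0.43, the copper importer gene Slc31a1 at 0.40 and Sco2, another supplier of copper to cytochrome oxidase, at 0.30. Ccs at 1.40 and Sod1 at -0.54 thus had opposite signs in the same lysates, a contrast whose Ccs side was chosen for its height.

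The beta-oxidation genes around Ech1 were mostly higher, although less so than Ech1, which was chosen for its height. Of 19 tested, 15 were higher and 2 lower in WT (1 lower without number 3 or number 5), with a median of 0.58. In Fmr1 KO 13 were higher and 2 lower (1 lower without number 6), with a median of 0.65. The largest WT values were those of Echs1 at 1.00 (SE 0.10, limma adjusted p = 5.91e-06), the long-chain acyl-CoA dehydrogenase gene Acadl at 0.95 and the hydroxyacyl-CoA dehydrogenase gene Hadh at 0.93, each higher in 6 of 6 lysates. Eci1 and Decr1, whose products also act on double bonds of unsaturated fatty acids, stood at 0.72 and 0.39 and passed. Hadha, the large subunit of the trifunctional protein, fell by 0.41 (SE 0.11, limma adjusted p = 0.00539). The peroxisomal Decr2 fell by 0.29. Of the 25 list genes with a probe set, 6 were too dim to test.

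Among the Mediator genes the shares called lay near those of all genes. Of 32 subunit genes tested in WT besides Med16, 10 were higher, 10 lower and 12 not past the threshold, with a median of -0.05. In Fmr1 KO 11 were higher and 9 lower, with a median of -0.01. Med27 came closest to Med16 with 1.32 (SE 0.13, limma adjusted p = 4.97e-06), ahead of Med22 at 1.00 and Med20 at 0.91. At the other end were Med28 at -1.41 (SE 0.09, limma adjusted p = 3.41e-07), Med29 at -1.30 and Med30 at -1.04. In Fmr1 KO these stood at 1.38, 1.27 and 1.05 and at -1.14, -1.12 and -0.89. Each of these 6 moved the same way in 6 of 6 WT lysates.

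Among the genes around Rpa2 and Eepd1, 10 of 16 were tested, and 3 were higher and 3 lower in WT, with a median of -0.12. Without the filter on dim signal 5 were higher. In Fmr1 KO 2 were higher and 4 lower. Rpa2 was chosen for its height, so the lower values of the other replication protein A subunits are given only as a description. Rpa1, the large subunit, rose by 0.37 in WT (SE 0.11, limma adjusted p = 0.0142, higher in 5 of 6 lysates) and stood at 0.29 in Fmr1 KO (limma adjusted p = 0.0677). Its second probe set rose by 0.55 in WT and by 0.47 in Fmr1 KO (limma adjusted p = 0.00141), so in Fmr1 KO 1 of its 2 probe sets passed. Rpa3, the small subunit, stood at -0.25 in WT (limma adjusted p = 0.101). The nucleotide excision repair gene Xpa rose by 0.58 and Rfwd3, a ubiquitin ligase gene of the RPA-coated fork, by 0.34. Tipin, a replication fork protein that binds Rpa2, fell by 1.81 (SE 0.10, limma adjusted p = 6.83e-08), the RPA-binding gene Etaa1 by 0.78 and the checkpoint kinase gene Atr by 0.51. Exo1, Dna2, Blm, Atrip and Timeless, which act at stalled or broken forks, were too dim to test.

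All 11 NAP and TSPY family genes and partners listed with Tspyl5 were tested, and 5 were higher and 0 lower in both genotypes (1 lower in Fmr1 KO with quantile normalization or an intensity trend). The median was 0.20 in WT and 0.16 in Fmr1 KO. Tspyl3 rose by 0.49 in WT (SE 0.09, limma adjusted p = 0.000724) and Tspyl1 by 0.39 (SE 0.09, limma adjusted p = 0.00213), with second probe sets at 0.73 and 0.76. Tspyl4 stood at 0.20 and Tspyl2 at 0.13, neither past the threshold. None of these relatives came near the 1.75 of Tspyl5, which was chosen for its height.

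For the endocytosis genes around Pacsin1 the shares called in WT also lay near those of all genes. In WT 9 of 27 tested were higher and 8 lower, with a median of 0.18. The lower ones were 5 without number 2 or number 5 and 4 without number 6. In Fmr1 KO 7 of 26 were higher and 10 lower, with a median of -0.02. Sh3gl1, an endophilin gene, rose by 0.86 in WT (SE 0.10, limma adjusted p = 2.29e-05) the epsin gene Epn2 by 0.81 and the F-BAR gene Fcho1 by 0.71, while another endophilin gene, Sh3gl3, fell by 1.41 (SE 0.09, limma adjusted p = 3.66e-07). The AP-2 adaptor genes Ap2s1 and Ap2m1 stood at -0.93 and -0.71, both past the threshold. Pacsin3 rose by 0.51 in WT (SE 0.09, limma adjusted p = 0.000538), but at values that in total RNA averaged 3.79, under the dim limit. Pacsin2 had no probe set with a single symbol.

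Of the 12 EARP and GARP tethering genes listed with Eipr1, 5 were higher and 2 lower in WT, with a median of 0.19, and 3 higher and 2 lower in Fmr1 KO (6 higher there without number 5). Vps51 and Vps53, shared by both complexes, rose by 0.45 (SE 0.09, limma adjusted p = 0.00117) and 0.38 (SE 0.11, limma adjusted p = 0.0105) in WT and stood at 0.26 and 0.19 in Fmr1 KO, not past the threshold there. A dimmer Vps53 probe set stood at 0.0034 in WT and fell by 0.36 in Fmr1 KO (limma adjusted p = 0.0203), so the probe sets of Vps53 disagreed. Vps50, the subunit particular to EARP, stood at 0.18 in WT and Vps52, shared like Vps51 and Vps53, at 0.19, neither past the threshold. A dimmer Vps50 probe set had the opposite sign, at -0.19 in WT, and did not pass either. Vps54, the subunit particular to GARP, fell by 1.06 (SE 0.10, limma adjusted p = 5.25e-06) in WT and by 0.95 in Fmr1 KO. The Golgi GTPase gene Rab2b rose by 0.76 and 1.02, and Hid1, another dense-core vesicle gene, by 0.40 in WT.

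The uronate pathway of Cryl1 could hardly be read. Of 8 genes listed, 3 were tested and none passed in either genotype (limma, adjusted p of 0.313 to 0.365 in WT, 0 with an unadjusted p under 0.05). Ugp2 stood at 0.09, Akr1a1 at 0.08 and Ugdh at -0.11 in WT. Dcxr, which acts after Cryl1 in the pathway, averaged 3.53 in WT total RNA, under the dim limit.

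The last comparison asked whether loss of Fmr1 changed these mRNAs. The contrast between genotypes was not used to choose the genes, but the arrays are the same. In such bulk tissue fewer cells of a type and less RNA per cell cannot be told apart. None of the 13 probe sets passed in total RNA, where limma called 0.0056% of 17850 probe sets higher and 0.0336% lower. Differences between Fmr1 KO and WT ran from -0.10 (Eipr1 1436955_at) to 0.09 (Eepd1 1417877_at), 7 of them above 0. No unadjusted p was under 0.05, the smallest limma adjusted p = 0.998, and the smallest two-sided exact permutation p was 0.435. The 95% intervals of the 13 differences all lay within -0.40 and 0.48. Levels of the 2 genotypes overlapped at every probe set in the plot of levels.

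In polyribosomal RNA again none of the 13 passed, where limma called 0.017% of 17687 probe sets lower and 0 higher. Values ran from -0.16 (both Pacsin1 probe sets) to 0.24 (Rpa2 1454011_a_at), with 11 of 13 above 0. Over all probe sets tested the median was 0.0075. Probe sets of the same gene are not independent, so nothing is read from this count. The smallest limma adjusted p = 0.9999, no unadjusted p was under 0.05, and the smallest two-sided exact permutation p was 0.0563, at Ech1, whose difference was 0.21 (95% interval -0.01 to 0.44). The widest interval, at Pacsin1 1449380_at, reached from -0.60 to 0.28. Pacsin1 was the only gene with values below 0, at both of its probe sets.

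The polyribosomal minus total difference was likewise compared between genotypes. It is built from both differences that chose the genes, so it is not independent of that choice. Of the 13 probe sets, 10 had a larger difference in Fmr1 KO and none passed, as for all 18544 probe sets tested (limma, 0 higher and 0 lower). The median over all tested was itself above 0, at 0.02, and some genes count with more than 1 probe set. Nothing is read from the signs. The largest was Rpa2 1454011_a_at at 0.32 (95% interval 0.03 to 0.62, limma adjusted p = 0.999, two-sided exact permutation p = 0.0325), the only 1 of 13 with an unadjusted p under 0.05. The second Rpa2 probe set stood at 0.15 (95% interval -0.19 to 0.49). Eipr1 stood at 0.24 (95% interval -0.03 to 0.52), Ccs at 0.20, Ech1 at 0.18 and Med16 at 0.13. Pacsin1 had the lowest value, -0.20 (95% interval -0.65 to 0.25), while Eepd1 and Tspyl5 both stood at 0.02 and Cryl1 at -0.03. None of the tested genes of the 8 lists passed in any of these 3 comparisons. Among all genes tested, 1 probe set each, limma called 0.0103% higher and 0.031% lower in total RNA. It called 0 higher and 0.0103% lower in polyribosomal RNA, and 0 either way for the difference. A value that does not pass leaves changes inside these intervals possible. The 924 splits of 6 against 6 arrays allow a permutation p down to 0.00216.

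**Figure D4:**
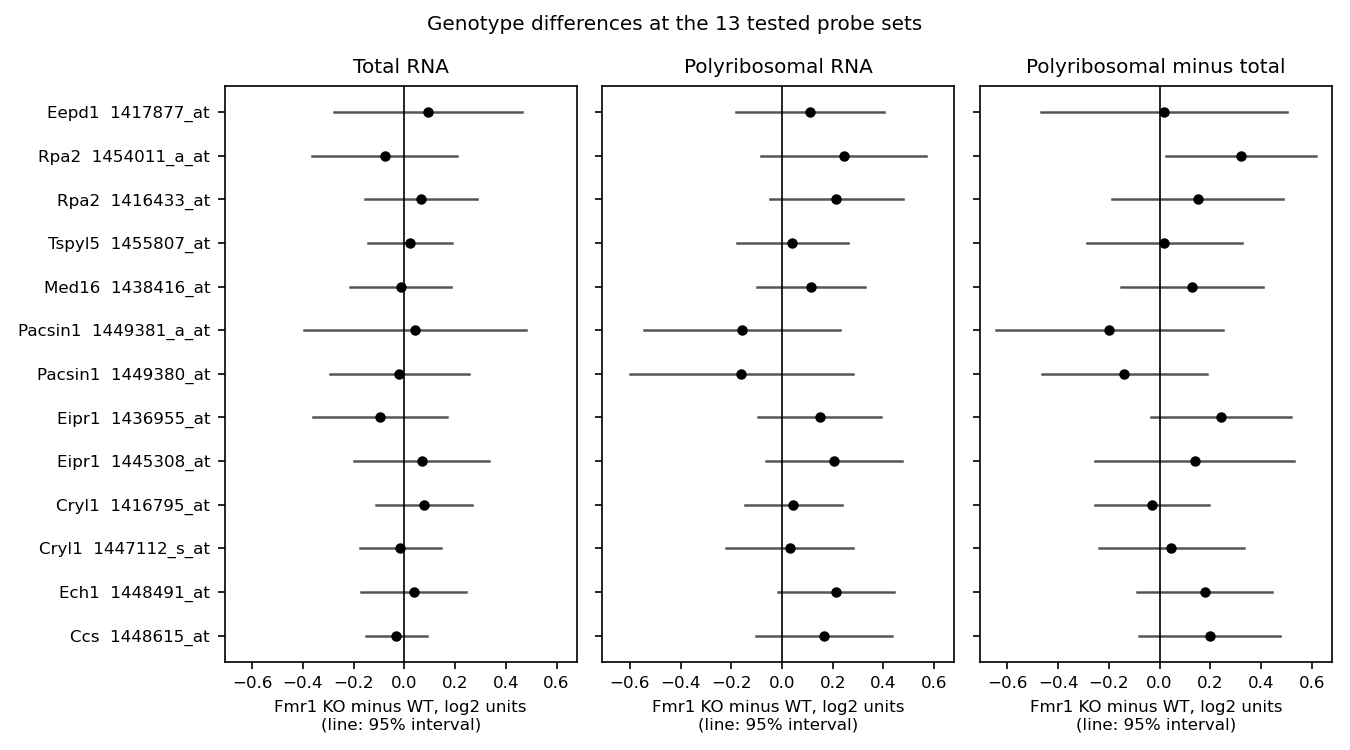
Fmr1 KO minus WT in log2 units (horizontal axes) at the 13 tested probe sets (rows) in total RNA, in polyribosomal RNA and for the polyribosomal minus total difference, from limma fits over 6 against 6 arrays or lysates. Points are estimates and lines 95% intervals; of all intervals shown only that of Rpa2 1454011_a_at in the right panel leaves out 0, from 0.03 to 0.62 before any adjustment.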

How the data were processed

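GCRMA was the authors' method for the deposited values, per the submitters' processing notes; it summarizes the probes of a probe set after correcting and normalizing their signal. The deposited values behave as log2 values, and that scale was judged from their range. The GCRMA version, and whether all 24 arrays were normalized together, are not given in the sources used here. Gene names came from the platform annotation. Of 45037 probe sets, 34945 had 1 symbol, 932 several and 9160 none. RefSeq promoters were of GRCm38.p6.

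All tests were two-sided limma fits (version 3.58.1, R 4.3.3, functions lmFit and eBayes), adjusted by Benjamini-Hochberg over all probe sets tested, with a threshold of 0.05. The lysate was a block for polyribosomal against total RNA. Probe sets under a log2 value of 4 in too many arrays were left out, as 6 arrays had to reach it. Gene values use the probe set with the highest mean over 24 arrays. Exact permutation tests used 6 against 6 arrays. The fits were tested on simulated data. Figures used matplotlib 3.10.9 in Python 3.11.15.

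Per the labels' protocols, part of a lysate was kept for total RNA. Polyribosomal and total arrays of the same replicate number and genotype were therefore taken to share a lysate. Residuals of such pairs had correlations between 0.02 and 0.52 for WT, and between 0.16 and 0.47 for Fmr1 KO. Of 6 polyribosomal arrays per genotype, 5 in WT and 6 in Fmr1 KO correlated best with the total array of their own number. Between genotypes, same-numbered residuals correlated at 0.13 to 0.53 in total and -0.14 to 0.63 in polyribosomal RNA, and the number was a block there only as an alternative. Replicates are pools of different mice.

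The 9 genes, the 8 lists and the naming rule were chosen with earlier results of these data known. The rule named all probe sets of the 9 genes, in each list up to 3 called genes with the largest WT values in each direction plus the closest partners, the gene most like each of the 9, and the genes next to them in rank.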

Additional observations from a re-analysis of the deposited data

Results flagged for a closer look

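In 78 series of 6 values (levels of the 13 tested probe sets in each group, and their lysate differences in each genotype), 4 had a highest or lowest value far from the other 5, judged by its gap relative to the whole range. Chance flags about 1 in 20 such series. The WT polyribosomal level of Eepd1 1417877_at in number 4 was 5.96, with the others at 6.46 to 6.72. That array also correlated least with its group, at 0.983. The WT total level of Pacsin1 1449381_a_at in number 1 was 7.13, with the others at 6.32 to 6.56. The Fmr1 KO total level of Rpa2 1454011_a_at in number 5 was 6.96, with the others at 6.14 to 6.37. The polyribosomal minus total difference of Ech1 1448491_at in WT lysate number 1 was 1.91, with the others at 1.26 to 1.47.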

How the results depend on the processing

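Alternatives were no filter or a limit of 5 on dim signal, median centring, quantile normalization, an intensity trend in eBayes, the block turned on or off, leaving out each replicate number, and the mean over the probe sets of a gene. With no replicate block 13 of 13 probe sets were called higher in polyribosomal RNA in each genotype, a count that the choice of genes fixes and that says nothing about stability. With the replicate number as a block 0 of 13 were called between genotypes in any of the 3 comparisons. None of the 9 genes passed between genotypes under any alternative run (smallest limma adjusted p 0.650). As a description, the enrichment of Eepd1 in WT lay between 2.25 and 2.51 and that of Pacsin1 in Fmr1 KO between 0.87 (mean of 2 probe sets) and 1.46. Genotype differences near 0 changed sign in some alternatives, and the cause was not tested. With centring and with quantile normalization, Med16 in total RNA stood at 0.0031 and 0.0043, and the genotype difference in enrichment at -0.0091 and -0.0057 for Eepd1 and at -0.0077 and -0.0026 for Tspyl5. Leaving out replicates, total RNA values ran from -0.072 to 0.046 for Med16, from -0.0088 to 0.074 for Ech1, from -0.10 to 0.14 for Pacsin1, from -0.20 to 0.014 for Rpa2 and from -0.0060 to 0.053 for Tspyl5. Those in polyribosomal RNA ran from -0.0058 to 0.089 for Tspyl5. Those of the difference in enrichment ran from -0.16 to 0.20 for Eepd1, from -0.030 to 0.095 for Tspyl5 and from -0.063 to 0.0034 for Cryl1. A planned description of protein length was not run, as no protein table was used here.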
